A study of Danio rerio with 72 samples.

Results

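The Kit receptors kita and kitb and the Kit ligands kitlga and kitlgb were followed across 6 laser-captured regions of the zebrafish tail at 52 hours post fertilization. These 4 genes were taken by name from tables of 25067 protein-coding genes, and all 4 were present in both tables. Polyadenylated RNA was sequenced from the caudal vein plexus (CVP), the caudal vein (CV), the caudal artery (CA), the neural tissue (N), the left muscle (L) and the right muscle (R) of each frozen, stained section. The sections form 2 series, called M and Z, of 6 sections each, with the layer numbers 2, 6, 8, 12, 15 and 17 in M and 1, 6, 10, 19, 22 and 25 in Z. The labels name no genotype, strain or treatment, give no meaning for M and Z, and tie no section to an embryo. CVP, CV and CA together are called the caudal hematopoietic tissue (CHT) here, and N, L and R the surrounding tissue.

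Kit is a receptor tyrosine kinase of class III, the family that also holds the receptors for platelet-derived growth factor and for colony stimulating factor 1. It binds Kit ligand, also called stem cell factor, and signals through Ras and MAP kinases, phosphoinositide 3-kinase, phospholipase C gamma and Src family kinases. In mice the pathway is needed by blood stem cells, melanocytes, germ cells and mast cells. Zebrafish carry a pair of genes for the receptor and a pair for the ligand. Their melanophores, the black pigment cells, need kita to migrate and survive, and kitlga is known as a ligand for them. The CHT is the tissue in which embryonic blood stem cells lodge and multiply.

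Of 72 libraries 71 were used. In Z the L library of layer 6 equalled the rounded-up mean of the L libraries of layers 1 and 10 in 7841 of its 7859 genes above 0, so it was left out, and L in Z has 5 libraries. Reads in protein-coding genes numbered 75007 to 875545 per library in M and 91104 to 4009980 in Z. Region markers were read first: the neuronal gene elavl3 had at least 526 FPKM (reads scaled by gene length and library total) in every N library and at most 10.55 FPKM in any other. The muscle gene mylpfa had at least 6904 FPKM in every L and R library, and reached 26231 FPKM in CA of layer 8 in M. The endothelial gene cdh5 was above 0 in all CVP and CA libraries, in 6 of 6 CV libraries of Z and in 5 of 6 of M, where its CV median was 12.2 FPKM. The endothelial gene kdrl was above 0 in 3 of 6 CV libraries of M, with a CV median of 0.655 FPKM. That lay below its N median of 4.34 FPKM in M, while its CV median in Z was 69.7 FPKM. Over all tested genes, 4 vascular libraries of M (CA of layers 8, 15 and 17, CVP of layer 17) and 3 of Z (CVP of layers 22 and 25, CV of layer 25) lay closer to another region than to their own. The limma p-values given below rest on the spread left between libraries after region and section, pooled over all regions, though the regions differed in spread. All p-values would be too small where several sections came from 1 embryo.

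Few reads stood behind these genes. Summed over all libraries, kita had 347 reads in M and 1526 in Z, kitb 127 and 137, kitlga 113 and 654, and kitlgb 162 and 250. The RNA was amplified, with no molecular identifiers named, so reads may be copies of 1 molecule. A library at 0 allows some expression: for kita, 3 reads would have given 1.73 to 11.2 FPKM in CV libraries of M and 0.210 to 3.23 FPKM in those of Z. In captured tissue, fewer cells of a type and less RNA per cell cannot be told apart.

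kita was high in CVP in both series, and in CV in Z. In M it ranged from 19.9 to 85.8 FPKM in CVP (median 49.2), from 0 to 27.0 in CV (median 1.29) and from 0 to 4.24 in CA (median 0). In the surrounding tissue of M it ranged from 0 to 12.2 FPKM in N (median 2.06), from 0 to 6.90 in L and from 0 to 2.06 in R, with medians of 0 in both muscles. All 6 CVP libraries lay above every library of CA, N, L and R, while CV held 2 libraries at 25.9 and 27.0 FPKM (layers 2 and 17) and 4 at 2.58 or 0.

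In Z both CVP and CV were high. kita ranged from 2.63 to 98.1 FPKM in CVP (median 14.0) and from 10.9 to 52.3 in CV (median 23.2). It was 0 in 5 of 6 CA libraries, and 8.28 FPKM in the CA library of layer 25. It reached 6.01 FPKM in N, 11.04 in L and 9.05 in R, each with at least 3 libraries at 0. The CV and CA libraries did not overlap, whereas the CVP library of layer 22, at 2.63 FPKM, lay below the highest CA library.

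**Figure D1:**
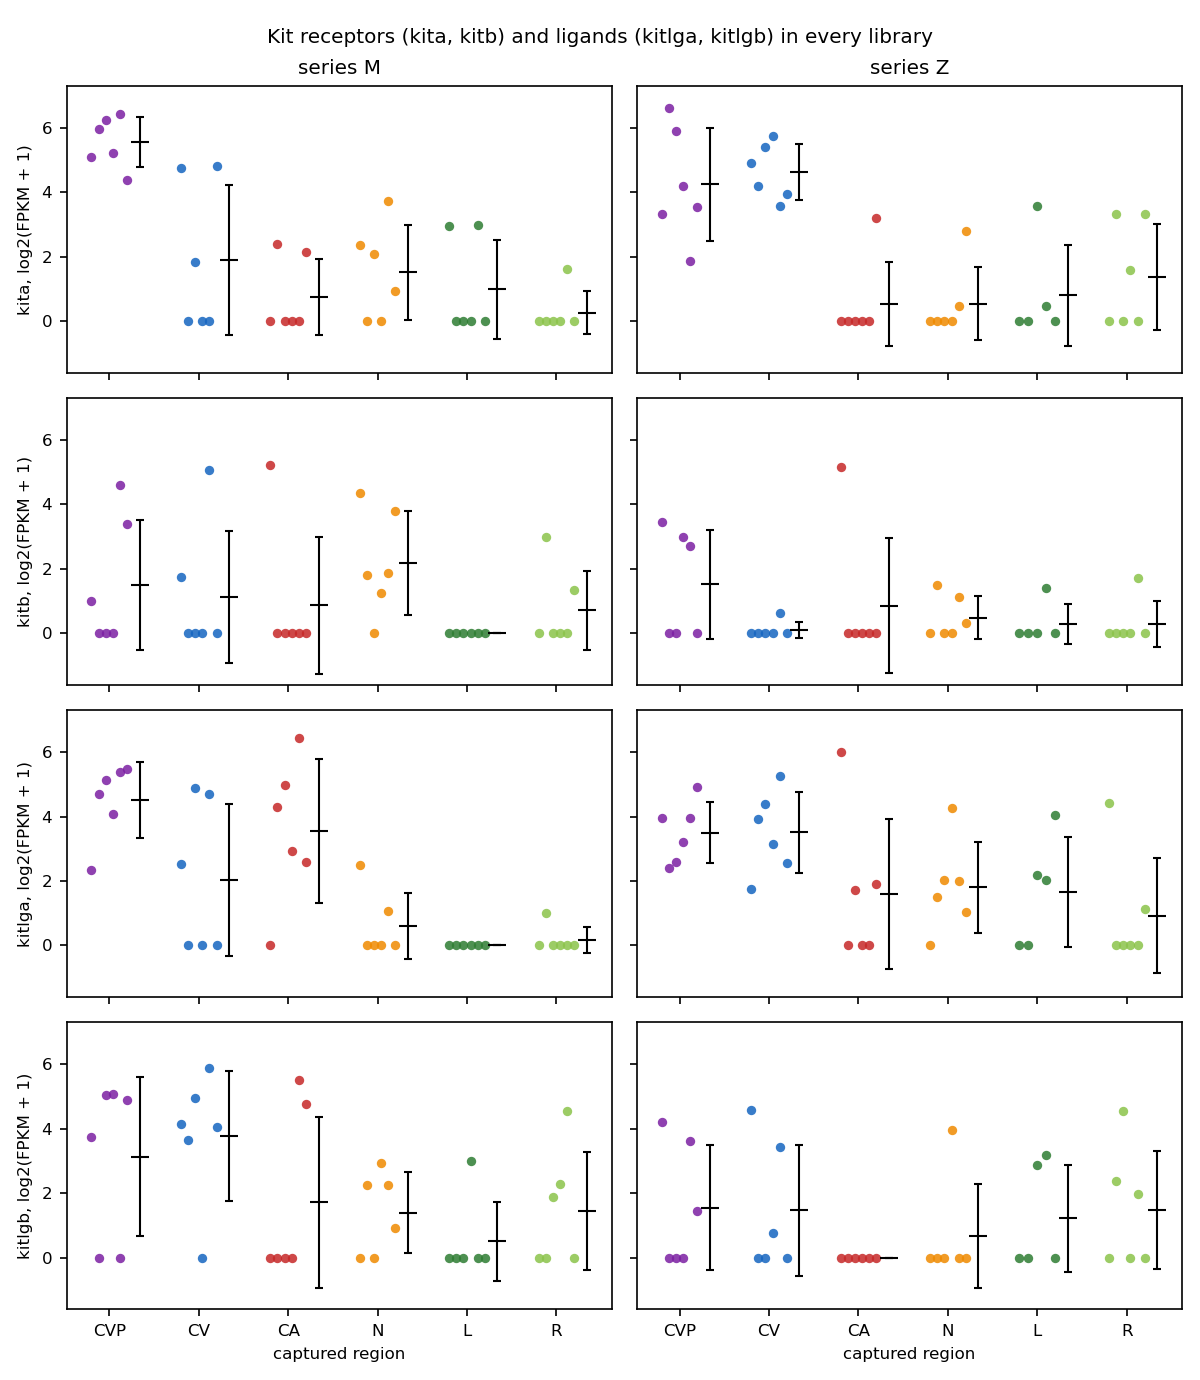
Level of each gene in every library as log2(FPKM + 1), by captured region (horizontal axis) and series (columns). Points are libraries in order of layer number, and the bar beside them is the mean with its SD (6 libraries per region, 5 for L in Z); kita is high in CVP in both series and in CV in Z, and many points of all 4 genes lie at 0.

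Changes are differences of log2(FPKM + 1) with their SE, from limma fits of each series with region and section as terms, and a gene counts as called where its p, adjusted over all tested genes by Benjamini-Hochberg, is under 0.05. In the CHT against the surrounding tissue kita rose by 1.81 ± 0.50 in M (limma adjusted p = 0.0081), higher in 5 of 6 sections. In Z it rose by 2.19 ± 0.47 (limma adjusted p = 0.00069), higher in 6 of 6 sections. Over the section differences the exact sign-flip permutation p, two-sided and unadjusted, was 0.0625 in M and 0.0312 in Z. In layer 6 of Z, which lacks its L library, the surrounding tissue of the section differences and counts is N and R alone, for every gene. The smallest that 6 sections allow is 0.0312. The median change of all tested genes was 0.14 in M and 0.19 in Z. Without layer 17 the change in M was 1.48 (limma adjusted p = 0.052).

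Within the CHT, kita was higher in CVP than in CA in both series. The rise was 4.80 ± 0.86 in M (limma adjusted p = 0.00092) and 3.71 ± 0.80 in Z (limma adjusted p = 0.0049), in 6 of 6 sections of each. In CV against CA it rose by 4.09 ± 0.80 in Z (limma adjusted p = 0.0012), in 6 of 6 sections, and the change in M was 1.14 ± 0.86 (limma adjusted p = 0.59). CVP against CV gave 3.66 ± 0.86 in M (limma adjusted p = 0.0094), with 5 of 6 sections higher, and -0.38 ± 0.80 in Z (limma adjusted p = 0.93). Over sections the exact sign-flip permutation p, two-sided and unadjusted, was 0.0312 in CVP against CA in each series. It was 0.094 in CVP against CV in M. The difference between the series in this last comparison, 4.04 ± 1.16, did not pass (limma adjusted p = 0.12). With detected genes per library as a covariate, CVP against CA passed in neither series (3.64 in M, limma adjusted p = 0.19; 3.30 in Z, limma adjusted p = 0.079), and in Z it was 2.63 under quantile scaling (limma adjusted p = 0.067). CVP against CV in M lost its call without layer 6, 8 or 12 (3.20, 3.51 and 3.35), with array weights (3.71) and with the covariate (2.47). Detected genes in M numbered 8973 to 14693 in CVP, 4516 to 10103 in CV and 6038 to 9741 in CA. The fit with this covariate thus separates region from detected genes poorly in these comparisons of M.

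Against muscle alone kita rose by 2.11 ± 0.55 in M (limma adjusted p = 0.0046) and by 1.99 ± 0.54 in Z (limma adjusted p = 0.0058). Under quantile scaling these were 1.47 (limma adjusted p = 0.052) and 1.08 (limma adjusted p = 0.18), and the call in Z was also lost with the covariate (1.65) and without layer 10 (1.61). Against N it rose by 2.59 ± 0.66 in Z (limma adjusted p = 0.0026), and the change in M was 1.22 ± 0.70 (limma adjusted p = 0.19; 0.028 under quantile scaling and 0.027 with limma-voom).

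Between regions, melanophore markers moved with kita. Their summed FPKM (11 genes, among them dct, tyrp1b and pmela of pigment formation) was 751 to 4282 in CVP, 4.02 to 2626 in CV and 0 to 976 in CA of M, against 11.6 to 47.4 in N, 0.658 to 18.5 in L and 0 to 19.9 in R. In Z it was 2049 to 7991 in CVP, 1888 to 4568 in CV and 0 to 1184 in CA, against 5.79 to 373 in N, 1.49 to 124 in L and 5.80 to 1664 in R. In the CHT against the surrounding tissue 9 of 11 tested markers rose in M and 10 of 10 in Z, beside 8.96% and 13.2% of all tested genes. In CVP against CA 8 of 11 and 9 of 10 rose, and in CV against CA 2 of 11 and 8 of 10. Of all tested genes 3.37% in M and 4.45% in Z were called in either direction in CVP against CA. In CV against CA these shares were 2.67% and 4.3%. The 1 CA library of Z with kita, of layer 25, had the highest melanophore sum of its region, and the R library with the highest sum (1664, layer 6) had 9.0 FPKM of kita. Other libraries did not pair the measures so: the R library of layer 25 in Z had the highest kita of its region, 9.05 FPKM, with a sum of 100.1, and the L library of layer 2 in M had 6.75 FPKM with a sum of 0.658. The CA library of layer 15 in M had the highest sum of its region, 976, and no kita read. The CV library of layer 12 in M had a sum of 1504 and no kita read. Within CV of Z the highest sums were 4568 (layer 25) and 3860 (layer 22). These libraries had the lowest kita of that region, 14.3 and 10.9 FPKM. In CVP of M the library with the highest kita, 85.8 FPKM (layer 15), had a sum of 893. In CVP of Z the library of layer 22 had 2.63 FPKM with a sum of 4168, and that with the highest sum (7991, layer 10) had 59.3 FPKM. The part of melanophores in the kita levels was not tested.

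**Figure D2:**
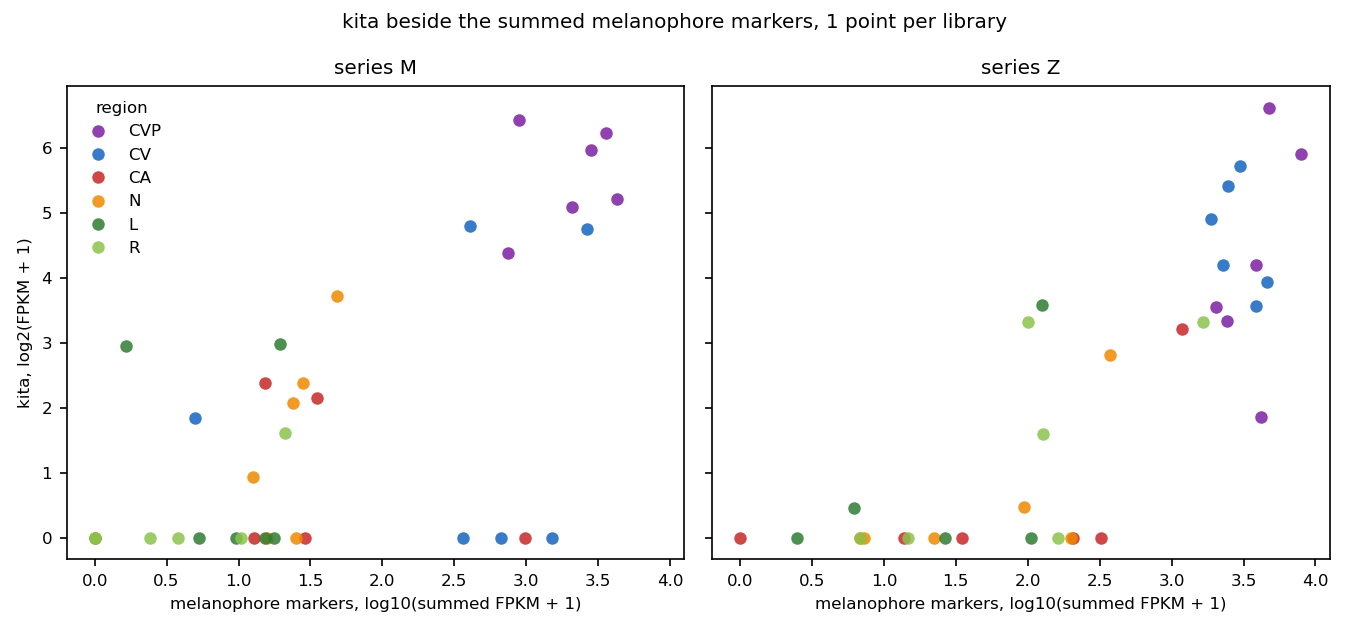
kita against the summed melanophore markers, 1 point per library, coloured by region, for M (left, 36 libraries) and Z (right, 35 libraries), on the log scales given on the axes. Libraries of CVP in both series and of CV in Z mostly sit at the upper right, and most libraries of N, L and R have low sums. The CVP library of layer 22 in Z lies lower, with 2.63 FPKM of kita at a sum of 4168.

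Markers of other cells that use Kit were read beside kita. The mast cell gene cpa5 had medians of 10.9 FPKM in CVP and 0 in CV and CA of M, and it was 0 in every N, L and R library. In Z its medians were 73.1 FPKM in CVP, 7.41 in CV and 33.8 in CA, against 0.917 in N and 0 in L and R. cpa5 was named after its values were seen. Of its list of 4 mast cell genes (with gata2a, lmo2 and spi1b, which other blood cells also use) 1 of 3 tested rose in the CHT against the surrounding tissue in M. In Z 3 of 4 rose, beside 8.96% of all genes in M and 13.2% in Z. Against N alone limma called 0 of 3 in M, with 0 at an unadjusted p under 0.05, while Z had 2 higher and 1 lower of 4. Of all genes 29% in M and 28.2% in Z were called against N. In CVP against CA 1 of 3 mast cell genes rose in M, and in Z 0 of 4 passed, with 1 higher at an unadjusted p under 0.05. Of all genes 3.37% and 4.45% were called there in either direction. myb, a transcription factor of blood stem and progenitor cells, had a CVP median of 23.0 FPKM in M and 8.79 in Z, and reached 48.5 and 61.6 FPKM in CA. runx1, which also defines these cells, was above 0 in 1 CVP library of M and 2 of Z, and at 0 in every CV and CA library. It was above 0 in as many N libraries, 1 of M and 2 of Z. There it reached 7.15 FPKM in M and 10.98 in Z, against 33.31 and 9.74 in CVP. myb reached 1.24 FPKM in N of M and 15.6 in N of Z. Of the blood stem and progenitor list 5 of 13 tested genes rose in the CHT against the surrounding tissue in M and 11 of 17 in Z, beside 8.96% and 13.2% of all genes. In CVP against CA 1 of 13 and 1 of 17 rose, beside 3.37% and 4.45% of all genes called in either direction. The list's summed FPKM was as high in N as in parts of the CHT. Its medians were 393 in CVP, 176 in CV and 376 in CA of M, against 371 in N, 28.6 in L and 21.4 in R. In Z they were 589, 423 and 599, against 461, 40.9 and 62.5. The part of these cells in the kita levels was not tested.

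kitb was scattered, with no region high throughout. In M it ranged from 0 to 23.4 FPKM in CVP (median 0.505), from 0 to 32.7 in CV and from 0 to 36.2 in CA, with medians of 0 in CV and CA. In N it was above 0 in 5 of 6 libraries and reached 19.5 FPKM (median 2.60). It was 0 in all 6 L libraries, where 3 reads would have given 1.38 to 3.06 FPKM, and reached 6.88 FPKM in R. The 36.2 FPKM in CA came from the library of layer 2 alone, with 11 reads.

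In Z kitb ranged from 0 to 9.97 FPKM in CVP (median 2.78), and was above 0 in 1 of 6 CV libraries (0.535 FPKM) and 1 of 6 CA libraries (34.6 FPKM). It reached 1.81 FPKM in N, 1.64 in L and 2.30 in R, and all groups overlapped. The change in the CHT against the surrounding tissue was 0.20 ± 0.50 in M (limma adjusted p = 0.84) and 0.50 ± 0.37 in Z (limma adjusted p = 0.37). In Z this was 0.0051 to 0.69 when a section was left out, over the 5 omissions that kept kitb among the tested genes.

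The 1 call for kitb was in N against muscle in M, 1.83 ± 0.76 (limma adjusted p = 0.042), with 5 of 6 sections higher. There the median of all tested genes was itself 1.63, and under quantile scaling the change was 0.25 (limma adjusted p = 0.86). Without a filter the limma adjusted p was 0.055, without the replicate block 0.052, and the call was also lost without layer 2, 12 or 17. In Z the comparison gave 0.24 ± 0.55 (limma adjusted p = 0.74). Sensory neurons are a known site of kitb in zebrafish embryos.

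kitlga was above 0 in all 12 CVP libraries, on as few as 2 reads in M and 3 in Z. Of the 17 libraries of M above 0, 7 held 1 to 3 reads, as did 6 of 25 in Z. In M it ranged from 4.08 to 44.0 FPKM in CVP (median 29.7), from 0 to 28.4 in CV (median 2.38) and from 0 to 85.7 in CA (median 12.7). In the surrounding tissue of M it reached 4.63 FPKM in N, was 0.993 FPKM in a single R library, and was 0 in all 6 L libraries, where 3 reads would have given 2.79 to 6.18 FPKM. The CVP libraries other than that of layer 2 lay above every library of N, L and R.

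In Z kitlga ranged from 4.27 to 29.0 FPKM in CVP (median 11.3), from 2.38 to 36.9 in CV (median 11.1) and from 0 to 62.9 in CA (median 1.14). It ranged from 0 to 18.1 FPKM in N (median 2.43), from 0 to 15.6 in L (median 3.11) and from 0 to 20.4 in R (median 0), so that all groups overlapped. It was above 0 in 14 of 18 CHT libraries and 3 of 18 surrounding libraries of M, and in 15 of 18 CHT libraries and 10 of 17 surrounding libraries of Z.

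In the CHT against the surrounding tissue kitlga rose in M by 3.11 ± 0.49 (limma adjusted p = 1.5e-05), higher in 6 of 6 sections, on 107 of its 113 reads. Over sections the exact sign-flip permutation p was 0.0312, two-sided and unadjusted. In Z the change was 1.45 ± 0.56 (limma adjusted p = 0.060), with 5 of 6 sections higher, and it passed with array weights (limma adjusted p = 0.027), with the left-out L library kept (0.041) and without layer 19 (0.045). The difference between the series was 1.65 ± 0.75 (limma adjusted p = 0.36). Against muscle the change was 3.28 ± 0.55 in M (limma adjusted p = 2.4e-05) and 1.65 ± 0.64 in Z (limma adjusted p = 0.053), where it passed with a pseudocount of 0.1, with array weights, with the left-out L library kept, and without layer 1 or 25. Against N it was 2.77 ± 0.70 in M (limma adjusted p = 0.0025) and 1.07 ± 0.78 in Z (limma adjusted p = 0.32), and in M it was 0.60 with detected genes as a covariate (limma adjusted p = 0.93). In M every N library had more detected genes (15754 to 18081) than any library of another region (at most 14693). The fit with this covariate thus cannot separate N from detected genes there.

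Between the vascular regions no kitlga change passed. CVP against CV gave 2.51 ± 0.86 in M (limma adjusted p = 0.079; 0.046 without layer 2) and -0.01 ± 0.96 in Z. CV against CA gave -1.53 ± 0.86 in M and 1.90 ± 0.96 in Z, and the difference of -3.43 ± 1.28 between the series did not pass (limma adjusted p = 0.26). The CA library of layer 1 in Z held 62.9 FPKM, and without that section CV against CA in Z was 3.13 (limma adjusted p = 0.026). Endothelial markers summed to 347 to 1071 FPKM in CVP, 17.4 to 328 in CV and 217 to 1403 in CA of M, against at most 86.3 in any N, L or R library. In Z they summed to at least 342 FPKM in every CHT library, against at most 110 in the surrounding tissue. Of the stromal markers 18 of 22 rose in the CHT in M and 13 of 22 in Z, beside 8.96% and 13.2% of all tested genes. In M they summed to at least 2171.6 FPKM in every CHT library, against at most 612.3 in N, 1806 in L and 2393 in R. In Z the medians of their sums were 3194 FPKM in CVP, 3530 in CV and 4421 in CA. Those of the surrounding tissue in Z were 348 in N, 3211 in L and 3713 in R. The sums of R in Z reached 7689 FPKM, above the highest of the CHT there, 6410 in CA. The part of either cell type in the kitlga levels was not tested.

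kitlgb was above 0 in 4 of 6 CVP and 5 of 6 CV libraries of M and in 3 of 6 of each in Z. In M it ranged from 0 to 32.6 FPKM in CVP (median 20.5), from 0 to 57.7 in CV (median 16.2) and from 0 to 44.1 in CA (median 0). It ranged from 0 to 6.62 FPKM in N (median 2.30) and from 0 to 22.2 in R (median 1.33), and 1 of 6 L libraries had 7.03 FPKM. The groups overlapped, and 5 of 6 CV libraries were at 11.5 FPKM or more. The CV libraries held 23 reads of kitlgb in all and at most 8 each. There 3 reads would have given 3.33 to 21.7 FPKM.

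In Z kitlgb was 0 in all 6 CA libraries, where 3 reads would have given 0.456 to 9.16 FPKM. It ranged from 0 to 17.6 FPKM in CVP (median 0.857) and from 0 to 22.8 in CV (median 0.346). In the surrounding tissue 1 of 6 N libraries had 14.6 FPKM, 2 of 5 L libraries had 6.28 and 8.15, and R reached 22.1 (median 1.48). All groups overlapped.

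In the CHT against the surrounding tissue kitlgb rose in M by 1.76 ± 0.63 (limma adjusted p = 0.048), higher in 5 of 6 sections, and the change in Z was -0.08 ± 0.52 (limma adjusted p = 0.94), with 3 of 6 sections higher. Over sections the exact sign-flip permutation p in M was 0.094, two-sided and unadjusted. The call in M was lost with a pseudocount of 0.1 (2.43), without a filter (1.76), under quantile scaling (1.41), without the libraries closer to another region (1.09), and without layer 2, 6, 8 or 17 (1.58, 2.02, 1.57 and 1.26). Against muscle kitlgb gave 1.90 ± 0.71 in M (limma adjusted p = 0.045), a call lost under the same changes and with the covariate, and -0.29 ± 0.59 in Z (limma adjusted p = 0.75). The series differed by 1.84 ± 0.85 in the first of these comparisons (limma adjusted p = 0.37).

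Epidermal markers were read beside kitlgb. In M their summed FPKM was 925 to 41179 in CVP, 16623 to 46120 in CV and 591 to 67473 in CA, against 40.3 to 114 in N, 54.0 to 5939 in L and 454 to 11912 in R. The CA library of layer 15 in M had the highest kitlgb of its region, 44.1 FPKM, with a sum of 1124. In Z the CA libraries, all at 0 for kitlgb, had sums of 187 to 1332, and CVP had 3276 to 14575 and CV 9651 to 24061, against 31.1 to 754 in N, 356 to 19238 in L and 344 to 21734 in R. Within CV of Z the 3 libraries with kitlgb had sums of 16499, 19989 and 24061, and those without it, of layers 6, 10 and 25, had 23774, 23052 and 9651. The L library of layer 25 in Z, with the highest sum of its region, had no kitlgb read. The CV library with the highest sum in M (46120, layer 12) had no kitlgb read. The part of epidermis in the kitlgb levels was not tested.

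**Figure D3:**
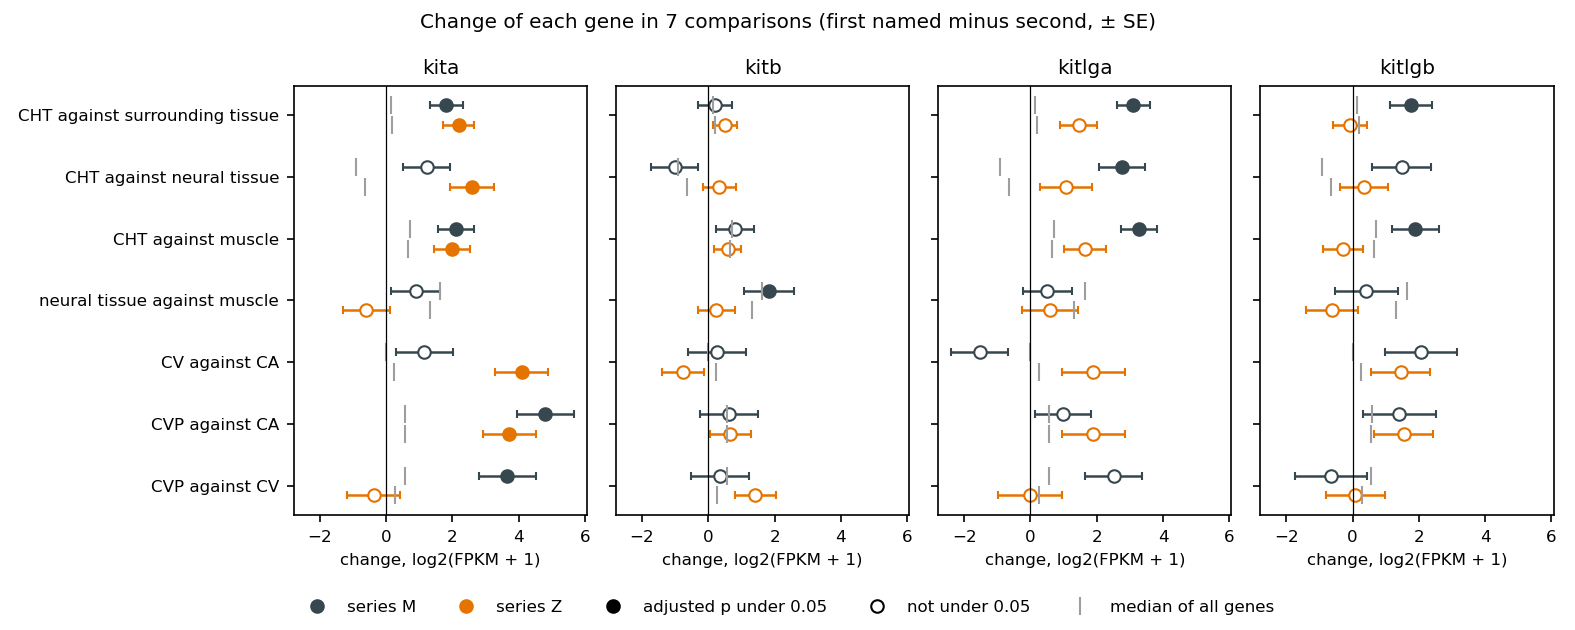
Change of each gene in 7 comparisons, first named region minus second, in log2(FPKM + 1) with its SE; filled points have a limma adjusted p under 0.05, and grey ticks mark the median of all genes tested. kita is called in CVP against CA in both series (4.80 and 3.71) and kitlga in the CHT against the surrounding tissue in M (3.11).

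Of the 4 genes, 3 rose in the CHT against the surrounding tissue in M and 1 in Z, beside 8.96% and 13.2% of all tested genes that rose. In either direction 17.8% and 21.9% of all tested genes were called. Against N alone 1 of 4 was called in each series, beside 29% and 28.2% of all genes, and against muscle alone 3 in M and 1 in Z, beside 24.5% and 26.2%. In N against muscle 1 of 4 was called in M and 0 in Z, beside 52.4% and 45.3%. These comparisons share libraries. Between vascular regions kita was the 1 of 4 called in CVP against CA in each series, beside 3.37% and 4.45% of all genes. It was also the 1 of 4 called in CV against CA in Z (all genes 4.3%) and in CVP against CV in M (all genes 4.9%). None of the 4 was called by limma in CV against CA in M (all genes 2.67%) or in CVP against CV in Z (all genes 0.441%). In these and in N against muscle in Z, limma-voom also called 0, and the unadjusted p was under 0.05 for kitb in CVP against CV in Z alone. Tested genes numbered 18263 in M and 16547 in Z.

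None of the 28 limma differences between the series passed, and 6 had an unadjusted p under 0.05. Over all 15571 genes tested in both, the shares called were 0.848% for the CHT against the surrounding tissue, 0.328% against N, 0.629% against muscle, 0% for N against muscle, 0.186% for CV against CA, 0.045% for CVP against CA and 0.193% for CVP against CV. A p that misses the threshold does not show that the series were alike.

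In the order of the regions few neighbours differed by more than the larger of their SDs. For kita in M, log2(FPKM + 1) averaged 5.56 ± 0.79 in CVP, followed by 1.90 ± 2.34 in CV (SD, n = 6 each), and no lower neighbours (N, L, CA and R, in this order) differed so. In Z, kita averaged 4.63 ± 0.86 in CV and 4.25 ± 1.76 in CVP, which did not, and the next region, R, averaged 1.37 ± 1.63. For kitlga the 1 such gap was in Z, between CVP at 3.50 ± 0.95 and N at 1.80 ± 1.42. kitb and kitlgb had none.

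The paralogs were compared within each library, since FPKM is per length. kita lay above kitb in 6 of 6 CVP libraries of M, by 4.06 ± 2.19 on the log2(FPKM + 1) scale (SD), and in 6 of 6 CV libraries of Z, by 4.53 ± 1.03. Both had the smallest p that 6 sections allow (exact sign-flip permutation p = 0.0312, two-sided), which was 0.30 adjusted over the 24 paralog tests. In N of M kitb was the higher receptor in 4 of 6 libraries (kita minus kitb -0.67 ± 2.10, SD). Of the ligands kitlgb lay above kitlga in 5 of 6 CV libraries of M (1.76 ± 1.74), on 23 reads of kitlgb and 9 of kitlga. It lay below kitlga in 5 of 6 CVP libraries (-1.95 ± 1.55) and 5 of 6 N libraries (-1.14 ± 0.86) of Z. Each of these had an exact sign-flip permutation p of 0.0625, two-sided, and 0.30 adjusted. No paralog difference passed the adjustment.

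Receptor and ligand reads occurred together in every CVP library. At least 1 receptor and 1 ligand were above 0 in 6 of 6 CVP libraries of both series and in 6 of 6 CV libraries of Z. In M they were together in 4 of 6 CV and 2 of 6 CA libraries, against 5 of 6 N, 0 of 6 L and 2 of 6 R libraries. In Z they were together in 2 of 6 CA libraries, against 3 of 6 N, 2 of 5 L and 3 of 6 R libraries. kita and kitlga were both above 0 in all 12 CVP libraries, with as few as 2 reads of kitlga, and kita and kitb in 3 of 6 CVP libraries of each series. Detected genes also differed between regions. In M they numbered 8973 to 14693 in CVP, 4516 to 10103 in CV, 6038 to 9741 in CA and 15754 to 18081 in N. The part of detected genes in these counts was not tested.

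The wider pathway was read from a list of 71 Kit signalling genes. In the CHT against the surrounding tissue 7 of 64 tested rose in M and 19 of 62 in Z, and none fell; at an unadjusted p under 0.05, 1 was lower in M and 3 in Z. Over all genes 8.96% rose and 8.86% fell in M, and 13.2% and 8.78% in Z. The median change of the list was 0.49 in M, against 0.14 over all genes, and 0.80 in Z, against 0.19. Under quantile scaling 6 of 64 were called in M (5 higher), beside 16.6% of all genes, and 13 of 62 in Z (10 higher), beside 18.9%. With limma-voom, where the median of all genes in M was 1.26, 34 of 64 were called in M (all higher), beside 58% of all genes, and 21 of 62 in Z (19 higher), beside 21.1%. Against N alone 14 of 64 were called in M, all lower, beside 29% of all genes, with a list median of -0.73 against -0.91 over all genes. In Z 13 of 62 were called against N, 7 higher and 6 lower, beside 28.2%, with medians of -0.40 and -0.65. Against muscle alone 24 of 64 were called in M, 23 of them higher, beside 24.5% (medians 1.13 and 0.71), and 31 of 62 in Z, 30 of them higher, beside 26.2% (medians 1.45 and 0.65). In CVP against CA 3 of 64 rose in M and 3 of 62 in Z, beside 3.37% and 4.45%, and in CVP against CV 7 of 64 rose in M, beside 4.9%.

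Over this list and a list of class III receptor relatives and their ligands, 9 of 69 genes tested in both series rose in the CHT in both, beside 5.47% of the 15571 genes. By list these were 5 of 60 Kit signalling genes and 4 of 9 relatives and their ligands. Of the relatives alone 4 of 10 tested rose in M and 6 of 9 in Z, beside 8.96% and 13.2% of all tested genes. The largest rise was that of pdgfra, the receptor of platelet-derived growth factor found on stromal cells, with 3.92 ± 0.47 in M and 3.14 ± 0.43 in Z. csf1rb, a receptor for colony stimulating factor 1, rose by 2.32 ± 0.59 in M and 1.02 ± 0.37 in Z, and in Z its call was lost whichever section was left out (limma adjusted p of 0.066 to 0.098). The ligand pdgfba rose by 1.54 ± 0.47 in M and 1.43 ± 0.45 in Z.

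Of the signalling genes gab1, an adaptor that recruits phosphoinositide 3-kinase, rose by 1.92 ± 0.46 in M and 2.64 ± 0.51 in Z. Its median in Z was 25.7 FPKM in CVP, 29.3 in CV and 36.2 in CA, against 8.79 in N, 3.88 in L and 1.97 in R. plcg1, a phospholipase C gamma, rose by 1.59 ± 0.49 in M and 2.49 ± 0.45 in Z, with its highest median in CA of Z (70.1 FPKM). In M its median in N, 22.9 FPKM, lay above that in CV (12.0) and near those in CVP (30.4) and CA (25.3). Its muscle medians in M were 3.53 FPKM in L and 0.647 in R. pik3r2, a regulatory subunit of phosphoinositide 3-kinase, rose by 1.57 ± 0.42 in M and 1.49 ± 0.41 in Z. Its median in Z was 17.4 FPKM in CVP, 26.6 in CV and 11.5 in CA, against 11.8 in N. lyn, a Src family kinase of blood cells, rose by 1.74 ± 0.50 in M and 1.54 ± 0.52 in Z, and was 0 in every L library used. dusp6, a phosphatase that acts on ERK, rose by 2.39 ± 0.51 in M and 1.49 ± 0.53 in Z. The limma adjusted p of these 8 genes was at most 0.019 in M and 0.046 in Z. pdgfra and gab1 passed under every alternative run, whereas under quantile scaling plcg1, pik3r2 and pdgfba did not pass in M, nor dusp6, csf1rb, lyn, pik3r2 and pdgfba in Z. In M the run with detected genes as a covariate cannot separate N from detected genes. Single sections also decided calls: in M plcg1 lost its call without layer 2, 6 or 8 and pdgfba without layer 6, with limma adjusted p up to 0.087 and 0.091. In Z dusp6 lost it without layer 10, 19, 22 or 25 (up to 0.14), lyn without layer 6, 19, 22 or 25 (up to 0.12), pdgfba without layer 19 or 22 (up to 0.083) and pik3r2 without layer 22 (0.060).

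**Figure D4:**
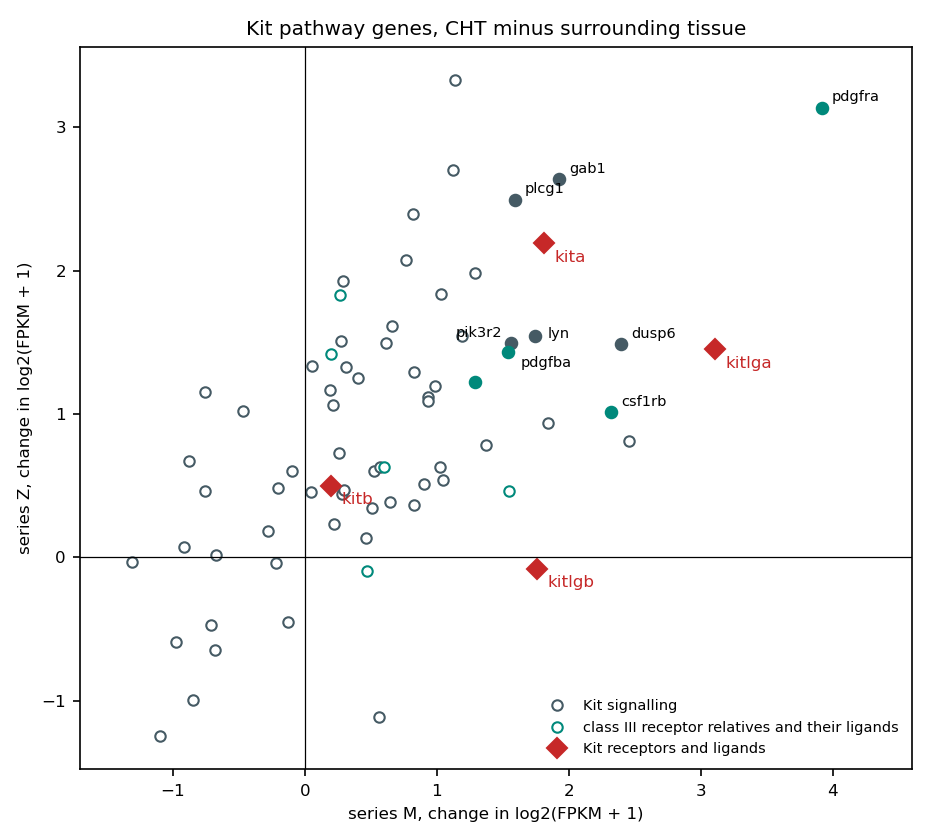
Change in the CHT against the surrounding tissue, in log2(FPKM + 1), in M (horizontal) and Z (vertical) for the Kit signalling list, the class III receptor relatives and their ligands, and the 4 Kit genes (red). Filled circles are called in both series, the 8 largest are named, and all of these lie above 0 in both series, whereas kitlgb lies at 1.76 in M and -0.08 in Z.

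The genes whose levels were most like each member were read from Pearson's r of log2(FPKM + 1) over the 36 libraries of M and the 35 of Z, among 13483 genes; libraries share depth and region, so r is a description. For kita they were TNC (r of 0.67 in M and 0.87 in Z), trpm1a (0.77 and 0.74), epdl1 (0.75 and 0.74), dct (0.66 and 0.83) and ocstamp (0.68 and 0.78). dct and trpm1a are melanophore genes. TNC, a matrix protein, had medians of 86.3 FPKM in CVP, 50.7 in CV and 3.99 in CA of M, against 1.62 in N, 0.438 in L and 0.188 in R.

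For kitb they were abi3bpa (0.51 and 0.84), cfhl3, CRHR2, or125-2 and rbm45, with a mean r of 0.68 for the first and at most 0.62 for the others. kitb was above 0 in 13 of 36 libraries of M and 10 of 35 of Z. Like kitb (34.6 FPKM), each of these genes had its highest value of Z in CA (22.8 to 331 FPKM). Their CA medians there were at most 0.361 FPKM. How far r rested on single libraries was not tested. For kitlga the genes most like it were sh3bp2 (0.71 and 0.59), fstb, vdrb, col4a2 (0.81 and 0.38), which encodes a chain of basement membrane collagen, and sgk3. For kitlgb they were B3GNT3 (0.50 and 0.70), cldne (0.57 and 0.59), ppl (0.47 and 0.66), ano10b and erbb3a, of which the epithelial junction genes cldne and ppl had their highest median in CV in both series. Among the members themselves r was 0.46 and 0.32 for kita and kitlga, 0.15 and 0.40 for kitb and kitlga, and 0.06 and -0.11 for kita and kitb.

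No gene passed a test against the layer number. Over the 6 sections of a series, Pearson's r between layer number and mean CHT level ran from -0.10 (kita) to 0.60 (kitlgb) in M and from -0.42 (kitb) to -0.18 (kita) in Z, and Spearman's rho from -0.09 to 0.71 and from -0.27 to 0.09. The exact permutation p was at least 0.208 for r and 0.136 for rho, and adjusted over the 8 relations at least 0.917 and 0.933. Without the 2 sections farthest from the median layer, which leaves 4, r was -0.79 for kita, 0.79 for kitb, 0.34 for kitlga and 0.55 for kitlgb in M, and -0.80, 0.97, 0.37 and 0.76 for the same genes in Z, so that the values of kita and kitb in both series, and of kitlga and kitlgb in Z, rested on those sections. In Z the log10 reads of the CHT captures followed the layer number (r = 0.94), and in M they did not (r = 0.02).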

How the data were processed

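Per the labels, regions were laser captured from frozen sections, and the RNA was amplified by a single-cell PCR method and made into NEBNext Ultra libraries. The authors deposited FPKM per protein-coding gene and library; the submitters' processing notes name FastQC, HISAT, HTSeq, DESeq2 and the build GRCz10, with roles and versions not given in the sources used here. Levels were taken as log2(FPKM + 1). Genes with at least 1 FPKM in 6 libraries of a series were fitted with limma 3.58.1 (R 4.3.3), with region and section as terms and the trend option, and p-values were adjusted by Benjamini-Hochberg over all tested genes at 0.05. The fit was tested on simulated data with changes only in better-covered genes and a single spread for all. That test does not cover genes at 0 in many libraries, as the Kit genes were. Regions are paired by section by design; deviations of same-section libraries had a mean correlation of 0.0098 in M and 0.024 in Z. Whole reads were recovered from the FPKM steps for all genes above 0 (tolerance 0.001) and used for depth, for limma-voom and for the 3-read floor, which covers counting error only. The gene length implied by the steps was the same in both series for 93.5% of 22989 genes. Reads of the remaining genes may be off in at least 1 series. Exact tests of paralogs and layers used Python 3.11.15 with numpy 2.4.6 and scipy 1.17.1, those of region changes R 4.3.3, tables pandas 2.3.3 and figures matplotlib 3.10.9. The alternatives changed the pseudocount, filter, scaling, replicate block, covariates, weights, test and sections; leaving out vascular libraries closer to another region was chosen after seeing the data. Named were the 4 members in every comparison, up to 8 pathway genes called in 1 direction in both series with the largest mean change, the 5 genes most like each member, and region markers; cpa5 was named after its values were seen. Members and lists were chosen with earlier results of these data known. No sequence was used here.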

Additional observations from a re-analysis of the deposited data

Results flagged for a closer look

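Of 48 groups of libraries (4 genes, 6 regions, 2 series) 45 had values above 0, and in 15 of them the highest library stood apart from the rest by Dixon's criterion. Chance alone meets it in about 1 in 20 groups of spread values, a rate that does not hold for groups mostly at 0: in 10 of the 15 a single library was above 0, which meets the criterion by construction. For kita they were R of layer 15 in M at 2.06 FPKM, and in Z CA of layer 25 at 8.28, L of layer 19 at 11.04 and N of layer 25 at 6.01. For kitb they were in M CA of layer 2 at 36.2 and CV of layer 15 at 32.7, and in Z CA of layer 1 at 34.6, CV of layer 22 at 0.535, L of layer 22 at 1.64 and R of layer 22 at 2.30. For kitlga they were R of layer 6 in M at 0.993, and in Z CA of layer 1 at 62.9 and R of layer 1 at 20.4. For kitlgb they were L of layer 12 in M at 7.03 and N of layer 19 in Z at 14.6. The CA library of layer 1 in Z thus held the highest values of its region for both kitb and kitlga.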

How the results depend on the processing

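The calls of kitlga in M in the CHT against surrounding tissue and muscle, and of kita in Z in the CHT against surrounding tissue and N and in CV against CA, passed under every alternative run. For kitlga in M against surrounding tissue, which includes N, the run with detected genes as a covariate cannot be read, as given below. Values below are log2 changes, and the cause of each move was not tested. With quantile scaling, which moved the median of all genes in M from -0.91 to 0.21 in CHT against N, from 1.63 to -0.11 in N against muscle and from 0.71 to 0.15 in CHT against muscle, calls were lost for kitlgb in M against surrounding tissue (1.41) and muscle (1.00), kita against muscle (1.47 in M, 1.08 in Z), kitb in M in N against muscle (0.25) and kita in Z in CVP against CA (2.63), and kita in M against N gained one (2.01). Signs turned there for N against muscle (kita -0.54, kitlga -0.38 and kitlgb -1.24 in M; kitb -0.53 and kitlga -0.83 in Z), kitb in M against N (0.058) and in CVP against CV (-0.054), and in Z kitb in CVP against CA (-0.18) and kitlgb in CVP against CV (-0.11); 10 Kit signalling genes rose in Z. With detected genes as a covariate, calls were lost for kita in CVP against CA (3.64 in M, 3.30 in Z), in M in CVP against CV (2.47) and in Z against muscle (1.65), and in M for kitlga against N (0.60) and kitlgb against muscle (1.203); kitb in M gained calls against N (-7.003) and muscle (1.55). Signs turned there in M for kitb against surrounding tissue (-1.30), kita (-2.01) and kitlgb (-5.89) in N against muscle and kitlgb in CVP against CA (-1.11), and in Z for kitb in N against muscle (-0.44) and kitlga in CVP against CV (0.20), and 1 relative rose in M. Every N library of M had more detected genes than any library of another region. Changes in M that involve N therefore cannot be read under this covariate. Those of CVP against CA and CV in M are also poorly separated from detected genes. With limma-voom, kita (2.33) and kitlgb (2.28) in M gained calls against N and kitb against muscle (2.13); kitb turned in M in CVP against CA (-0.049) and CV (-0.30) and in Z against N (-0.51), and 34 Kit signalling genes and 10 relatives rose in M, where 10600 genes were called. With a pseudocount of 0.1, kitlgb in M lost its calls against surrounding tissue (2.43) and muscle (2.86), kitlga in Z gained one against muscle (2.90), kitlga in Z in CVP against CV was 0.020, kita minus kitb turned in CA of M (0.35) and N of Z (-0.26), and 2 relatives rose in M. Without a filter, kitlgb in M against surrounding tissue (1.76) and muscle (1.90) and kitb in M in N against muscle (1.83) lost their calls; the last was also lost with no replicate block (1.83), and the block changed no other call of the 4 genes. With array weights, kita in M in CVP against CV lost its call (3.71), kitlga in Z gained calls against surrounding tissue (1.51) and muscle (1.62) and turned in CVP against CV (0.13); with the L library of layer 6 kept, kitlga in Z gained the same calls (1.5 and 1.72). Without vascular libraries closer to another region, kitlgb in M lost its calls against surrounding tissue (1.09) and muscle (1.22), and signs turned in M for kitb in CV (-0.77) and CVP (-0.73) against CA and in Z for kita (0.13) and kitlgb (-0.55) in CVP against CV.

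Leaving out each section in turn gave, in M, kita 1.48 to 2.30, kitb -0.28 to 0.56 and kitlgb 1.26 to 2.32 against surrounding tissue, kitlgb 1.36 to 2.47 against muscle, kitb 1.32 to 2.19 in N against muscle, -0.69 to 1.01 in CV against CA and -0.16 to 1.60 in CVP against CA, and in CVP against CV kita 3.10 to 4.48, kitb -0.24 to 0.58, kitlga 1.91 to 3.05 and kitlgb -1.80 to 0.39. In Z it gave kitlga 1.22 to 1.77 and kitlgb -0.71 to 0.34 against surrounding tissue, kitb -0.17 to 0.70 and kitlgb -0.18 to 1.15 against N, kita 1.61 to 2.31, kitlga 1.37 to 1.93 and kitlgb -0.98 to 0.084 against muscle, kitb -0.022 to 0.30 in N against muscle, kitb -0.91 to 0.12 and kitlga 1.23 to 3.13 in CV against CA, and kitlga -0.47 to 0.35 and kitlgb -0.18 to 0.26 in CVP against CV. Values not called with all sections that kept their sign but moved by over 1.5 times included, in M, kita 0.42 to 1.85 and kitlga -2.34 to -0.97 in CV against CA, kitlgb 0.68 to 2.79 and kitlga 0.60 to 1.39 in CVP against CA, kitb 0.33 to 1.27 against muscle, and in Z kitb 0.0051 to 0.69 against surrounding tissue, 0.091 to 0.71 against muscle and 0.20 to 1.14 in CVP against CA, kitlga 0.50 to 1.71 against N, and kita -0.94 to -0.11 in CVP against CV. Kit signalling genes that rose numbered 12 to 21 in Z, and relatives 2 to 4 in M and 2 to 5 in Z. kita minus kitb ran in M from -0.61 to 0.91 in CA, -0.86 to 0.056 in R and -0.046 to 1.93 in CV, and in Z from -1.03 to 0.64 in CA, -0.24 to 0.90 in L and -0.43 to 0.37 in N; kitlgb minus kitlga ran from 0.00 to 0.60 in L of M and in Z from -0.24 to 1.55 in R and -0.85 to 0.46 in L. Against layer in Z, the rank of the layer gave 0.086 for kitlga and 0.058 for kitlgb, and without the 2 farthest sections r was 0.97 for kitb, 0.37 for kitlga and 0.76 for kitlgb. Reads per library limit all of these values, with as few as 75007 in the shallowest.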
